A study of Danio rerio with 34 samples.

Results

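The genes described here build and cross over chromosomes in meiosis, the divisions that make sperm in the testis. A list of 34 gene names, chosen by role, was matched to the gene identifiers of the count tables, and 31 of the 34 names found an identifier among 35117. All 31 passed the filter on low counts. The names syce3, mei1 and meioc found no identifier and were not analysed here. Zebrafish syce1 was found under the symbol si:ch211-199g17.9, of which it is a RefSeq synonym. The genes were sorted by role into cohesin, synaptonemal complex and axis, break formation, strand exchange, crossover, telomere attachment and RNA regulation at meiotic entry.

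In early meiosis sister chromatids are held together by meiotic cohesin complexes, along which a protein axis forms. Spo11 cuts the DNA, the cut ends are resected, and the recombinases invade the homologous chromosome while telomeres held at the nuclear envelope move the chromosomes together. The synaptonemal complex then zips the homologs along their length, and a subset of the joined sites becomes crossovers. In a zebrafish testis these steps take place in primary spermatocytes, which lie in cysts between spermatogonia and spermatids. Roles given below are those known from mouse, unless another species is named.

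RNA was counted in testes of adult zebrafish given DMSO as the control treatment, 3 nM PCB126 or 10 nM PCB126, with 6 libraries in each group. PCB126 is a polychlorinated biphenyl of the dioxin-like kind, a strong agonist of AHR, the aryl hydrocarbon receptor. Fish given PCB126 were exposed for 24 h and then kept in clean water for 7 days before the testis was taken. No such times were recorded here for the DMSO libraries. The series describes its replicates as biological, and the sources used here do not say whether a library holds 1 fish or several.

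Library totals were 16.2 to 29.8 M counts (M, 1000000). CYP1A1 (zebrafish cyp1a), the standard AHR target, followed the labels, with 3.49 ± 1.08 CPM (SD) in DMSO, 674 ± 233 CPM at the lower dose and 1798 ± 790 CPM at the higher (n = 6 each), where CPM is counts per M (1000000) counts after TMM scaling. On the first principal component of all genes, which held 39.7% of the variance, 5 exposed libraries stood apart from the other 13, namely 3 nM replicates 4 and 6 and 10 nM replicates 1, 5 and 6. Their share of counts from mitochondrial genes was 3.8 to 7.22%, against 1.68 to 2.94% in DMSO and 2.21 to 3.56% in the other exposed libraries. The main counts of called genes are given below with and without these 5, called the libraries apart.

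At 10 nM, 14 of the 31 meiosis genes fell below DMSO and 0 rose, by edgeR's quasi-likelihood test with Benjamini-Hochberg adjusted p under 0.05 over all 24053 genes tested. Of all genes tested, 10.8% were called in either direction, 3.44% lower and 7.4% higher. The fallen genes were rec8b, rad21l1, smc1b, sycp2, mnd1, meiob, spata22, msh4, msh5, hfm1, tex11, exo1, majin and terb1. The median log2 fold change of the 31 genes was -0.54, with a range from -1.05 to 0.67, beside 0.06 for all genes tested. It was negative for 28 of the 31 and for 45.7% of all genes. The 6 libraries at 10 nM all lay below the 6 DMSO libraries for 9 of the 31 and above them for 0, beside 3.2% of all genes below and 2.93% above. At an unadjusted p under 0.05, 22 were lower and 0 higher, beside 12.8% of all genes lower and 20.1% higher. DESeq2 called 20 lower and 0 higher, beside 7.24% and 10.9% of the genes it tested. Because the RNA comes from whole testis, fewer cells of a type and less RNA per cell cannot be told apart.

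Without the libraries apart, 6 of the 31 were called lower, beside 0.883% of all genes, and these were rec8b, rad21l1, meiob, spata22, msh4 and hfm1. By role they were 2 cohesin, 2 strand exchange and 2 crossover genes, with 0 in each of the other roles. The median was then -0.51, beside -0.01 for all genes, and all 31 values were negative, from -0.77 to -0.12. This fit held 3 libraries at 10 nM. The 5 were left out by their own expression, the meiosis genes included. Adjusted p-values and calls without them, here and below, are therefore descriptive only. Medians by role in it were -0.55 for cohesin, -0.59 for strand exchange and -0.48 for crossover genes. They were -0.46 for telomere attachment, -0.38 for synaptonemal complex and axis and -0.36 for break formation genes. The count of 14 became 7 without DMSO replicate 1, without DMSO replicate 2 or without 10 nM replicate 5, and 8 without DMSO replicate 5. In these fits 269, 226, 236 and 392 of all genes were called lower, in that order, in place of 828. With libraries scaled on the spermatid and sperm list in place of TMM, 1 gene, msh4, was called, and with scaling on the spermatogonia list 6 were. Of all 24053 genes, 23 were called lower under spermatid scaling and 474 under spermatogonia scaling. In the 18 fits that left out 1 library each, rec8b, rad21l1, meiob, spata22, msh4, msh5 and hfm1 were called in all 18. The call was made in 14 for exo1, 13 for tex11, 13 for terb1, 12 for smc1b, 10 for majin, 5 for mnd1 and 3 for sycp2.

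**Figure D1:**
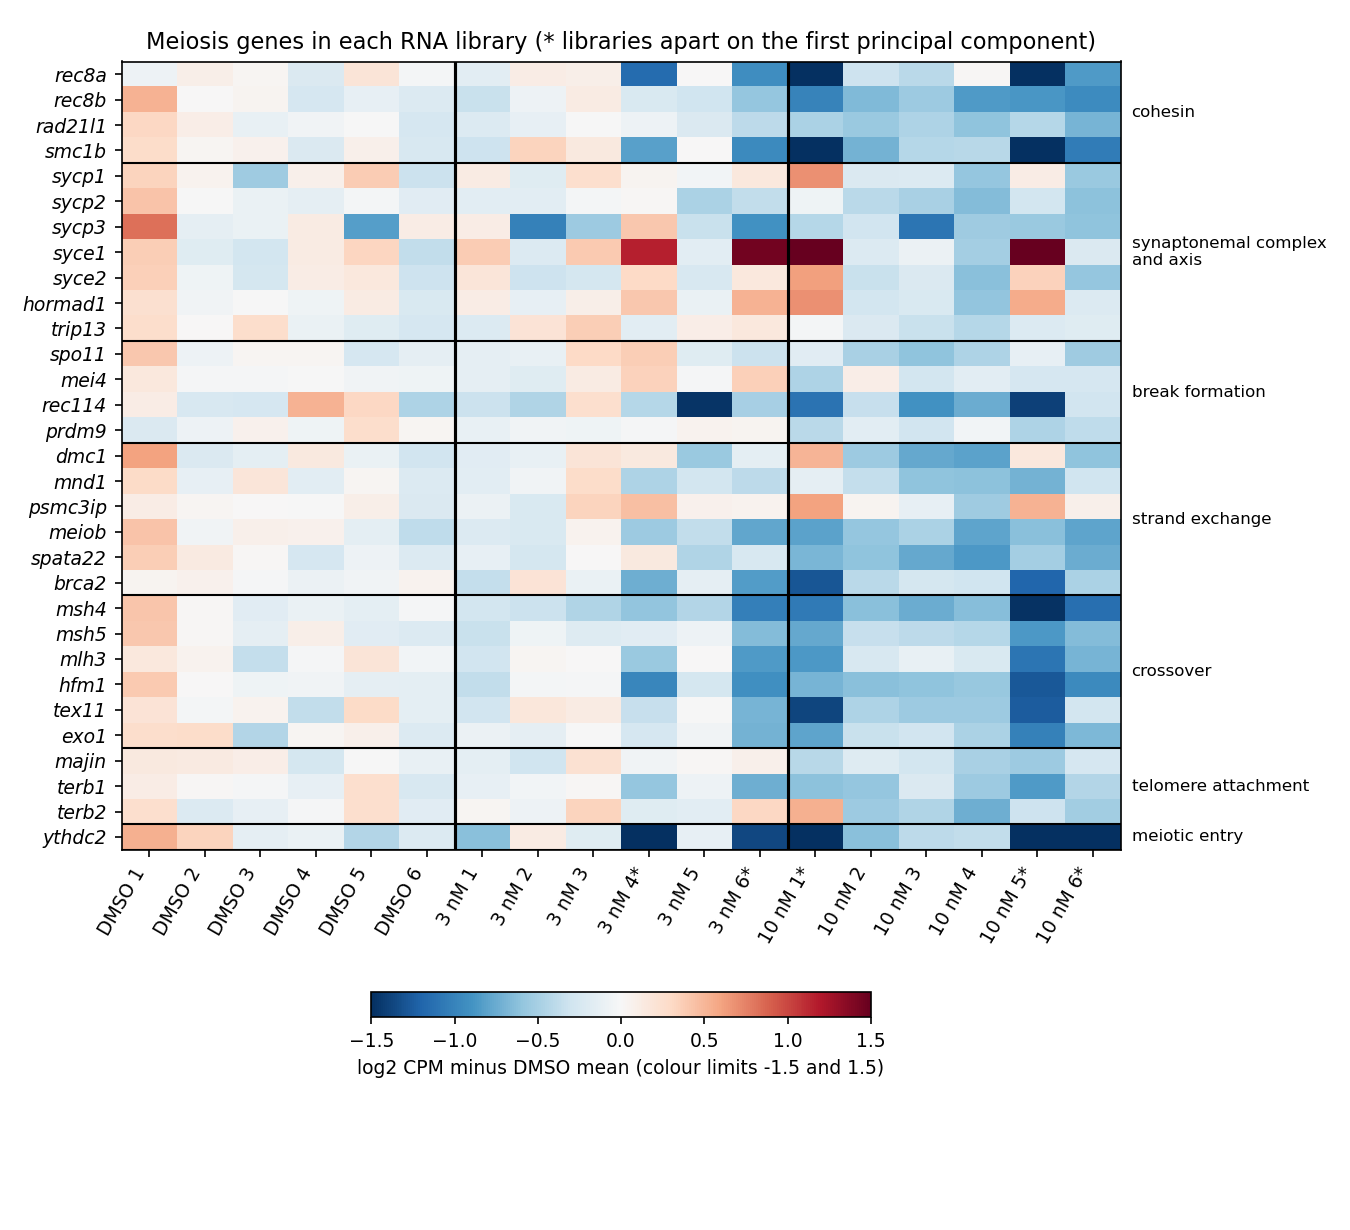
Log2 CPM of each of the 31 meiosis genes (rows, by role) in each of the 18 libraries (columns), minus the mean of the 6 DMSO libraries, with colours cut off at -1.5 and 1.5. Asterisks mark the 5 libraries apart. Cohesin and crossover rows are blue throughout 10 nM except rec8a in replicate 4, whereas the synaptonemal complex rows are blue or near white in 10 nM replicates 2, 3 and 4 and partly red in replicates 1 and 5.

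Of 4 cohesin genes 3 fell at 10 nM, and the median log2 change of the 4 was -0.75. The rec8b (ENSDARG00000069260) gene, 1 of a pair of zebrafish genes for the meiotic cohesin subunit Rec8, had a lowest, median and highest level of 169, 194 and 290 CPM in DMSO. At 3 nM those values were 135, 168 and 220 CPM, and at 10 nM they were 100, 111 and 138 CPM. The DMSO and 10 nM ranges were separate, and DMSO replicate 1 was the highest library. The log2 change at 10 nM was -0.83 (SE 0.14, edgeR adjusted p = 0.00348), and at 3 nM it was -0.24 (SE 0.14, edgeR adjusted p = 0.426).

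Another meiotic cohesin subunit of the same family is encoded by rad21l1 (ENSDARG00000022493), which ran from 253 to 373 CPM with a median of 295 in DMSO. It ran from 228 to 300 with a median of 268 at 3 nM and from 185 to 223 with a median of 211 at 10 nM. All 10 nM libraries were below all libraries of both other groups. Its log2 change at 10 nM was -0.54 (SE 0.10, edgeR adjusted p = 0.00656), and that between 10 and 3 nM was -0.37 (SE 0.10, edgeR adjusted p = 0.119).

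The smc1b (ENSDARG00000014402) gene encodes the meiotic version of the cohesin ring subunit Smc1. Its level was 804, 983 and 1149 CPM (lowest, median, highest) in DMSO, 491, 858 and 1194 at 3 nM and 284, 520 and 713 at 10 nM. The 10 nM range was wholly below that of DMSO, and the lowest libraries were the ones apart, at 540 and 491 CPM for 3 nM replicates 4 and 6 and at 284, 323 and 458 CPM for 10 nM replicates 1, 5 and 6. For 10 nM its log2 change was -0.90 (SE 0.25, edgeR adjusted p = 0.0308) with all libraries and -0.53 (edgeR adjusted p = 0.0743) without those apart. The second Rec8 gene, rec8a (ENSDARG00000078329), was at 4.82 ± 0.49 CPM (SD) in DMSO and 3.02 ± 1.33 CPM (SD) at 10 nM (n = 6 each) and did not pass the test (edgeR adjusted p = 0.118). Its 5 libraries apart had 1.55 to 2.62 CPM, and no other library was under 3.61 CPM.

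**Figure D2:**
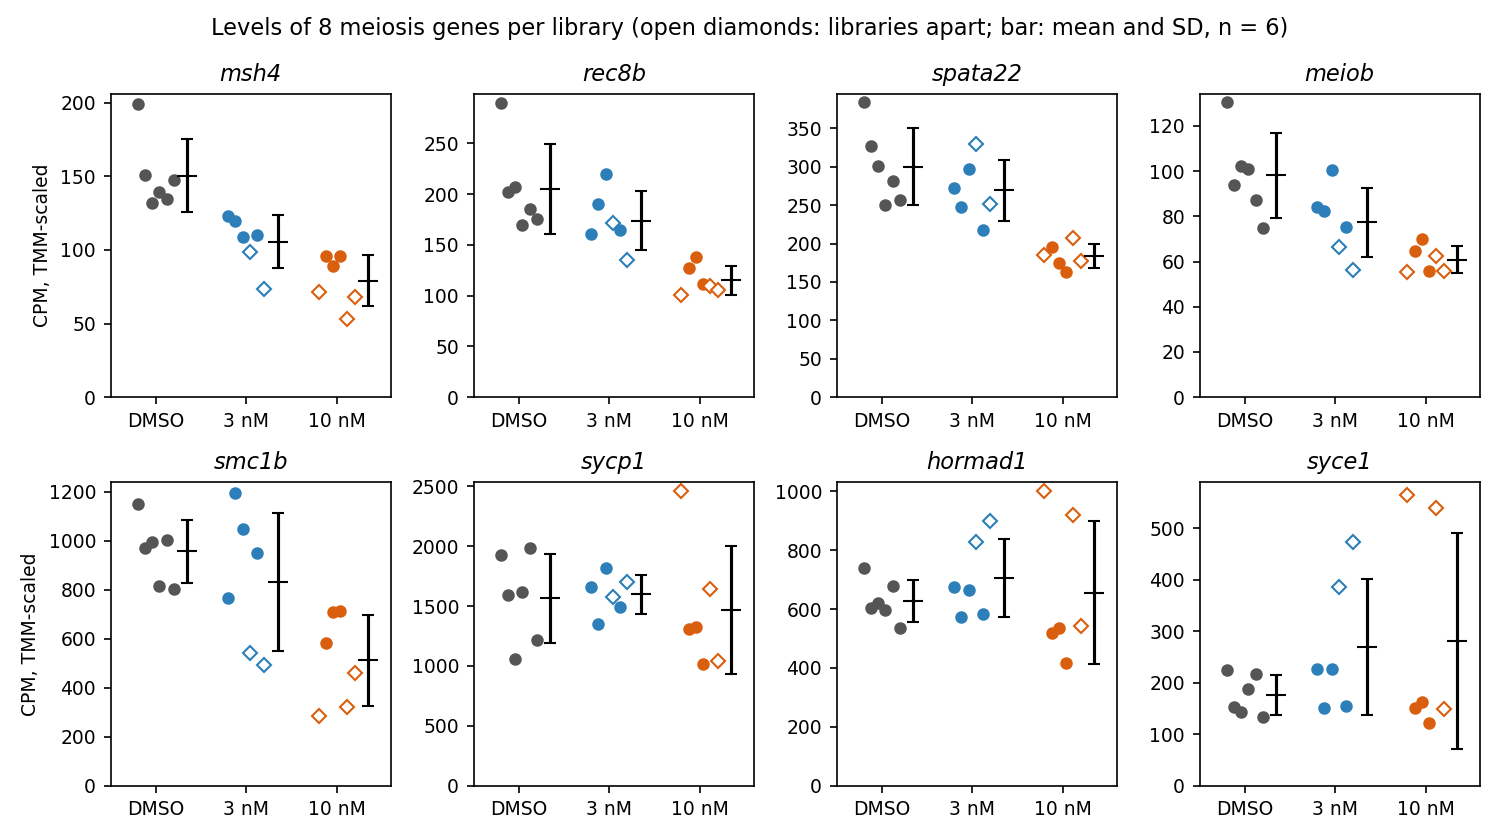
Level in CPM (TMM-scaled, linear axis from 0) of 8 meiosis genes in each library, by group, with the mean and SD of the 6 libraries beside the points. Open diamonds are the 5 libraries apart. For msh4, rec8b, spata22, meiob and smc1b the 10 nM points lie below all DMSO points, while for sycp1, hormad1 and syce1 the highest points are diamonds and the filled 10 nM points stay within or below the DMSO range.

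Of 7 synaptonemal complex and axis genes 1 fell at 10 nM and 0 rose, with a median log2 change of -0.09. At an unadjusted p under 0.05, 2 were lower, beside 12.8% of all genes, and DESeq2 called 1. Without the libraries apart 0 were called, and the median was then -0.38. The called gene was sycp2 (ENSDARG00000088950), for a lateral element protein of the complex, with 332, 359 and 504 CPM (lowest, median, highest) in DMSO, 268, 335 and 379 at 3 nM and 238, 275 and 359 at 10 nM. Its ranges overlapped, and DMSO replicate 1 stood above all other libraries. The log2 change at 10 nM was -0.42 (SE 0.13, edgeR adjusted p = 0.0495), and -0.54 (edgeR adjusted p = 0.0643) without the libraries apart. The 3 libraries at 10 nM that were then left had 238 to 283 CPM, below the DMSO range. For sycp3 (ENSDARG00000013438), its partner in the lateral element, the level was 252 ± 94.5 CPM (SD) in DMSO and 161 ± 28.1 CPM (SD) at 10 nM (n = 6 each), with overlapping ranges (edgeR adjusted p = 0.0941).

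Genes of the central region were not called, and some were high in the libraries apart. For syce1 (ENSDARG00000076609), a central element protein, the DMSO libraries ran from 134 to 224 CPM. The libraries apart were at 386 and 473 CPM at 3 nM and at 565, 539 and 149 CPM for 10 nM replicates 1, 5 and 6. The other 10 nM libraries were at 121 to 162 CPM. Thus 4 of the 5 libraries apart were above every other library. The share of all genes with that pattern was not counted, and all 5 lay above the whole DMSO range for 11% of all genes tested. Its log2 change at 10 nM was 0.67 (SE 0.39, edgeR adjusted p = 0.234) with all libraries and -0.30 (edgeR adjusted p = 0.436) without those apart.

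The axis protein gene hormad1 (ENSDARG00000040254), which marks unsynapsed chromosomes, likewise had 4 of the libraries apart above every other library. It ran from 534 to 740 CPM in DMSO, and 4 of the libraries apart were at 829, 899, 1002 and 920 CPM, with 10 nM replicate 6 at 543 CPM. The 10 nM libraries not apart had 416 to 534 CPM. For 10 nM its log2 change was 0.06 (SE 0.20, edgeR adjusted p = 0.85) and became -0.38 (edgeR adjusted p = 0.113) without those apart.

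For sycp1 (ENSDARG00000003904), the transverse filament protein that spans the complex in zebrafish as in mouse, DMSO levels were 1056, 1602 and 1989 CPM (lowest, median, highest). At 10 nM they were 1018, 1320 and 2460 CPM, the highest in replicate 1. Another central element gene, syce2 (ENSDARG00000103187), was at 705 ± 128 CPM (SD) in DMSO and 669 ± 249 CPM (SD) at 10 nM (n = 6 each). Neither passed the test, with log2 changes of -0.09 and -0.08 whose sign turned when libraries were scaled on the spermatogonia or the spermatid list. The ATPase gene trip13 (ENSDARG00000025043), whose product takes HORMA proteins off synapsed axes, was at 236 ± 36.9 CPM (SD) in DMSO and 200 ± 18.9 CPM (SD) at 10 nM (n = 6 each; edgeR adjusted p = 0.171).

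Of the 4 meiosis genes grouped under break formation, 0 were called in either direction by edgeR, with a median log2 change of -0.34. At an unadjusted p under 0.05, 3 were lower, and DESeq2 called the same 3 lower, namely spo11 (ENSDARG00000013837), rec114 (ENSDARG00000069781) and prdm9 (ENSDARG00000005382). The catalytic subunit gene spo11 had 108, 127 and 170 CPM (lowest, median, highest) in DMSO and 84.3, 92.3 and 118 CPM at 10 nM, with ranges that overlapped. Its log2 change was -0.40 (SE 0.14, edgeR adjusted p = 0.069). For rec114, a Spo11 accessory protein, the level was 6.61 ± 1.78 CPM (SD) in DMSO and 3.8 ± 1.14 CPM (SD) at 10 nM (n = 6 each; edgeR adjusted p = 0.0585). Another accessory gene, mei4 (ENSDARG00000043912), was at 91.5 ± 5.41 and 79.2 ± 10.6 CPM (edgeR adjusted p = 0.201). The histone methyltransferase gene prdm9, which places breaks in mouse, was at 38.8 ± 4.46 and 31.8 ± 3.65 CPM (edgeR adjusted p = 0.0616).

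Strand exchange genes had 3 of 6 lower and 0 higher at 10 nM, with a median log2 change of -0.52. The pair meiob (ENSDARG00000062442) and spata22 (ENSDARG00000098537) encode partners that bind single-stranded DNA at breaks. In DMSO spata22 had 250, 292 and 384 CPM (lowest, median, highest), at 3 nM 218, 262 and 329, and at 10 nM 163, 181 and 208. All its 10 nM libraries were below all libraries of both other groups. Its log2 change at 10 nM was -0.71 (SE 0.12, edgeR adjusted p = 0.00393) and -0.77 (edgeR adjusted p = 0.0197) without the libraries apart.

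For meiob the levels were 74.6, 97.4 and 131 CPM (lowest, median, highest) in DMSO, 56.3, 78.8 and 100 at 3 nM and 55.5, 59.3 and 69.9 at 10 nM. The 10 nM and DMSO ranges were separate. The log2 change was -0.69 (SE 0.14, edgeR adjusted p = 0.00941) at 10 nM and -0.34 (SE 0.14, edgeR adjusted p = 0.302) at 3 nM.

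The products of mnd1 (ENSDARG00000074451) and psmc3ip (ENSDARG00000037892) act as a pair that aids the recombinases, and of the 2 genes mnd1 was called. For mnd1 the level was 112, 124 and 157 CPM (lowest, median, highest) in DMSO, 93.4, 111 and 155 at 3 nM and 78.7, 92.6 and 117 at 10 nM. The ranges overlapped, and the log2 change at 10 nM was -0.45 (SE 0.14, edgeR adjusted p = 0.0445). For psmc3ip the level was 45.8 ± 3.59 CPM (SD) in DMSO and 50.6 ± 14.4 CPM (SD) at 10 nM (n = 6 each), with a log2 change of 0.14 (SE 0.16, edgeR adjusted p = 0.55) that became -0.20 without the libraries apart. The difference between these changes was not tested.

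The meiotic recombinase gene dmc1 (ENSDARG00000055883) was at 92.9 ± 23.8 CPM (SD) in DMSO and 76.3 ± 31.7 CPM (SD) at 10 nM (n = 6 each). At 10 nM the libraries apart, replicates 1, 5 and 6, were at 129, 101 and 59.6 CPM, and the other 3 were at 52.2 to 62.1 CPM, below the DMSO range of 74.4 to 138. Its log2 change was -0.29 (edgeR adjusted p = 0.369) with all libraries and -0.75 (edgeR adjusted p = 0.0678) without those apart. The recombinase loader gene brca2 (ENSDARG00000079015) was the reverse in this respect. Its DMSO range was 141 to 158 CPM and its 10 nM range 61.8 to 125 CPM, with 61.8, 65.7 and 108 CPM in replicates 1, 5 and 6. These ranges were separate, yet the log2 change of -0.60 (SE 0.19, edgeR adjusted p = 0.0507) did not pass the test, and it was -0.34 without the libraries apart.

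Crossover genes had 5 of 6 lower at 10 nM and a median log2 change of -0.65, and without the libraries apart 2 were lower and the median was -0.48. The MutS homologs msh4 (ENSDARG00000075826) and msh5 (ENSDARG00000077479) encode partners that stabilise joined DNA strands at future crossovers. In DMSO msh4 had 132, 143 and 199 CPM (lowest, median, highest), at 3 nM 73.3, 109 and 123 CPM, and at 10 nM 53.3, 80.2 and 96.1 CPM. Both exposed groups were wholly below the DMSO range. Its log2 change was -0.93 (SE 0.16, edgeR adjusted p = 0.00336) at 10 nM and -0.51 (SE 0.16, edgeR adjusted p = 0.198) at 3 nM. At 10 nM it was called under all 10 settings tried, with adjusted p between 4.69e-06 and 0.0404.

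For msh5 the values were 99.3, 110 and 152 CPM (lowest, median, highest) in DMSO, 73, 101 and 109 at 3 nM and 62.9, 79.3 and 90.2 at 10 nM. The DMSO and 10 nM ranges were separate. The log2 change at 10 nM was -0.58 (SE 0.13, edgeR adjusted p = 0.0152) and -0.42 (edgeR adjusted p = 0.0937) without the libraries apart.

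The helicase gene hfm1 (ENSDARG00000104288), which is needed for crossovers, had 192, 204 and 278 CPM (lowest, median, highest) in DMSO, 108, 170 and 210 at 3 nM and 88.1, 134 and 143 at 10 nM. All 10 nM libraries were below all DMSO libraries. For 10 nM its log2 change was -0.78 (SE 0.17, edgeR adjusted p = 0.0141) and -0.63 (edgeR adjusted p = 0.0271) without the libraries apart. The crossover factor gene tex11 (ENSDARG00000078995) had 153, 200 and 240 CPM in DMSO, 122, 179 and 222 at 3 nM and 76, 135 and 163 at 10 nM. Its ranges overlapped, through 10 nM replicate 6 at 163 CPM, and its log2 change was -0.70 (SE 0.19, edgeR adjusted p = 0.0301).

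Exonuclease gene exo1 (ENSDARG00000056832), which trims break ends and acts in crossover formation, had 60.2, 84.3 and 98.7 CPM (lowest, median, highest) in DMSO, 49.8, 75.3 and 80.8 at 3 nM and 40.4, 54.8 and 66.6 at 10 nM. DMSO replicate 3, the lowest of its group, overlapped the 10 nM range. The log2 change was -0.60 (SE 0.15, edgeR adjusted p = 0.0244). For mlh3 (ENSDARG00000056334), a subunit of the nuclease that resolves crossovers, the level was 33.5 ± 4.32 CPM (SD) in DMSO and 23.6 ± 6.27 CPM (SD) at 10 nM (n = 6 each; edgeR adjusted p = 0.0742). Its libraries apart had 15.6 to 22.5 CPM, below the DMSO range of 25.9 to 38.

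Telomere attachment genes had 2 of 3 lower at 10 nM and a median log2 change of -0.36. Without the libraries apart 0 were called, with log2 changes of -0.46 (edgeR adjusted p = 0.0604) for terb1 and -0.34 (edgeR adjusted p = 0.17) for majin. Their products, Majin, Terb1 and Terb2, fix telomeres to the nuclear envelope. For terb1 (ENSDARG00000058587) the level was 428, 504 and 599 CPM (lowest, median, highest) in DMSO, 304, 471 and 510 at 3 nM and 280, 342 and 434 at 10 nM. Its ranges met through 10 nM replicate 3, and the log2 change was -0.54 (SE 0.14, edgeR adjusted p = 0.0283). For majin (ENSDARG00000105594) the level was 44.1, 54.9 and 59.1 CPM in DMSO, 43.1, 52.4 and 62.1 at 3 nM and 36.3, 41.9 and 46.4 at 10 nM. Its log2 change at 10 nM was -0.36 (SE 0.11, edgeR adjusted p = 0.0379). Values of terb2 (ENSDARG00000039477) were 31.2 ± 4.55 CPM (SD) in DMSO and 25.6 ± 9.55 CPM (SD) at 10 nM (n = 6 each; edgeR adjusted p = 0.273), with 10 nM replicate 1 at 44.6 CPM and the other 5 at 18.6 to 24.9 CPM.

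The RNA helicase gene ythdc2 (ENSDARG00000103525), whose product helps germ cells leave the mitotic programme, had 13.4, 16.8 and 26.5 CPM (lowest, median, highest) in DMSO, 5.61, 13.9 and 19.9 at 3 nM and 3.42, 8.88 and 14.1 at 10 nM. The 5 libraries apart had the lowest values, 3.42 to 7.01 CPM. The log2 change at 10 nM was -1.05 (SE 0.36, edgeR adjusted p = 0.0621), the most negative of the 31 and not called, and -0.51 without those apart.

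**Figure D3:**
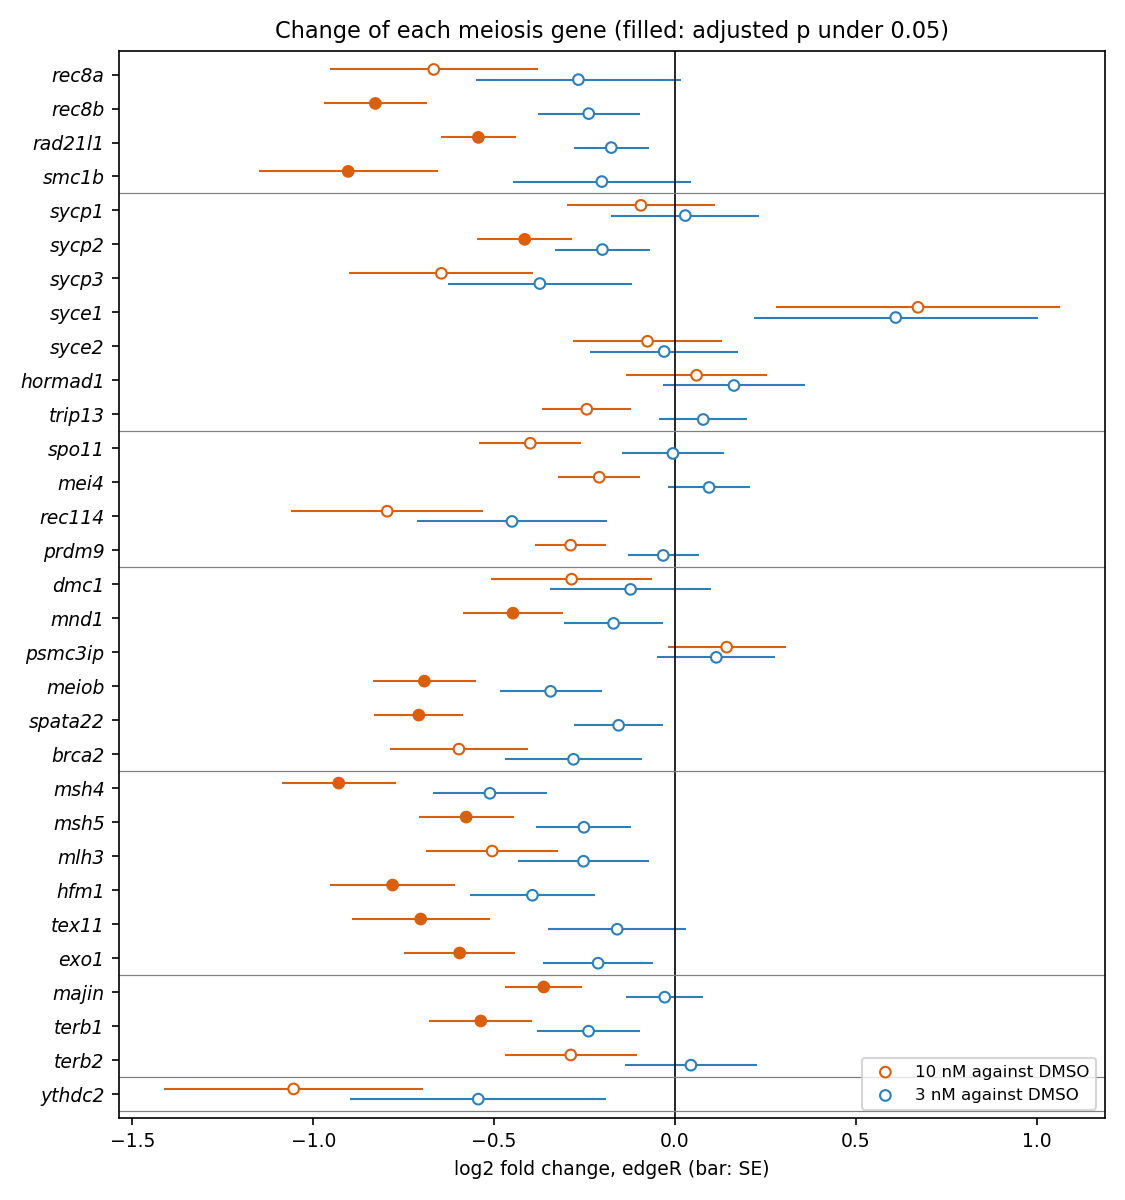
Log2 fold change and its SE for each of the 31 meiosis genes at 10 nM (orange) and 3 nM (blue) against the same DMSO libraries, by role. Filled points, 14 at 10 nM and 0 at 3 nM, had an edgeR adjusted p under 0.05. The medians are -0.54 at 10 nM and -0.18 at 3 nM.

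At 3 nM, 0 of the 31 were called by edgeR, beside 0.208% of all genes (0.079% lower and 0.129% higher), and 0 by DESeq2, beside 0.545% lower and 0.744% higher of the genes it tested. At an unadjusted p under 0.05, 3 were lower (meiob, msh4 and hfm1) and 0 higher, beside 4.94% and 9.26% of all genes. The median log2 change was -0.18, beside 0.02 for all genes, and 24 of the 31 values were negative, beside 47.8% of all genes. Without the libraries apart the median was -0.07, beside -0.01 for all genes. For msh4 all 3 nM libraries lay below DMSO, as for 0.707% of all genes, and no gene of the 31 lay wholly above, beside 1.03% of all genes. This comparison uses the same DMSO libraries as that at 10 nM, so the values of the 2 are not independent. Between 10 and 3 nM, edgeR called 0 of the 31, beside 0.129% of all genes (0.00831% lower and 0.121% higher), and at an unadjusted p under 0.05, 15 were lower and 0 higher, beside 3.33% and 8.44% of all genes. DESeq2 called 3 lower there, rec8b, rad21l1 and spata22, beside 0.491% lower and 2.64% higher of the genes it tested. Of the 31 values 29 were negative, beside 49.1% of all genes, with a median of -0.33 beside 0.01 for all genes. Both rad21l1 and spata22 had 10 nM ranges below those at 3 nM, beside 0.249% of all genes with lower ranges and 0.54% with higher.

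Across libraries, the 31 genes shifted together in some and spread apart in others. The median over the 31 of log2 CPM minus the DMSO mean was -0.21 to 0.29 in the DMSO libraries, -0.40 to 0.09 at 3 nM and -0.58 to -0.35 at 10 nM. DMSO and 10 nM thus did not overlap. The same median over all genes tested was -0.004 to 0.024 in DMSO and 0.016 to 0.058 at 10 nM, which overlapped. In 10 nM replicates 2, 3 and 4, which were not apart, 29, 31 and 30 of the 31 genes lay below the DMSO mean. That count ran from 2 to 28 in single DMSO libraries, the 28 in replicate 6. It was 11 to 25 at 3 nM and 24 to 31 at 10 nM, so the genes also moved together within single control libraries. In 10 nM replicates 2, 3 and 4 the middle 50% of genes spanned 0.30, 0.30 and 0.20 log2 units. In the libraries apart the same span was 0.70 and 0.88 at 3 nM and 0.88, 0.91 and 0.43 at 10 nM, against 0.12 to 0.32 in DMSO. The span over all genes was also wider there, 0.92 to 1.46 against 0.44 to 0.58 in the other exposed libraries and 0.29 to 0.49 in DMSO.

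The genes that lay below the DMSO range can be given for each set of libraries. All 5 libraries apart were below the whole DMSO range for 9 of the 31 genes, namely rec8a, smc1b, meiob, brca2, msh4, mlh3, hfm1, terb1 and ythdc2, and above it for 0. Of all genes tested, 14.2% lay below and 11% above in those 5. The 3 other 10 nM libraries were below it for 15, which included rec8b, rad21l1, sycp2, spo11, dmc1, mnd1, spata22, msh5, tex11 and terb2 beside smc1b, meiob, brca2, msh4 and hfm1, and above it for 0. Of all genes tested, 5.52% lay below and 6.39% above in those 3. Whether the gene sets differ beyond their spread was not tested.

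**Figure D4:**
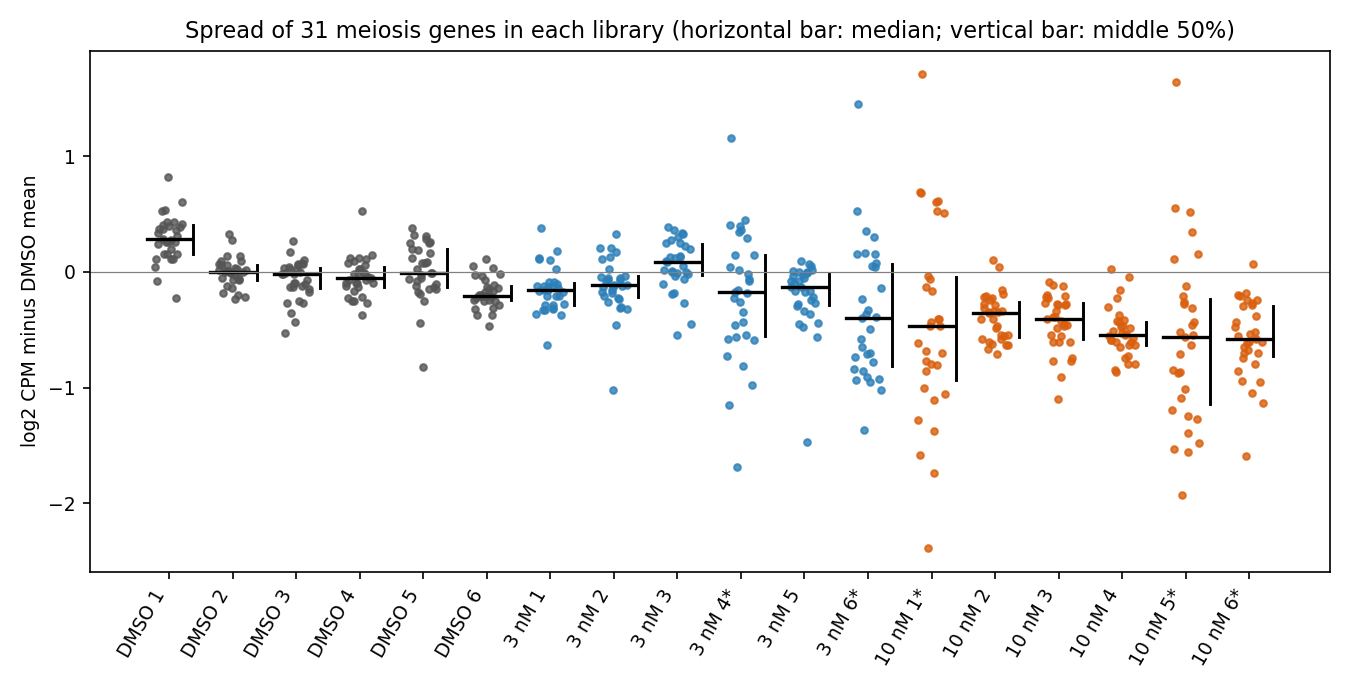
Log2 CPM minus the DMSO mean of the 31 meiosis genes (points) in each library, with the median (horizontal bar) and the middle 50% (vertical bar). Asterisks mark the libraries apart. The 10 nM medians lie between -0.58 and -0.35 in all 6 libraries, and the spread is widest in 10 nM replicates 1 and 5.

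**Figure D5:**
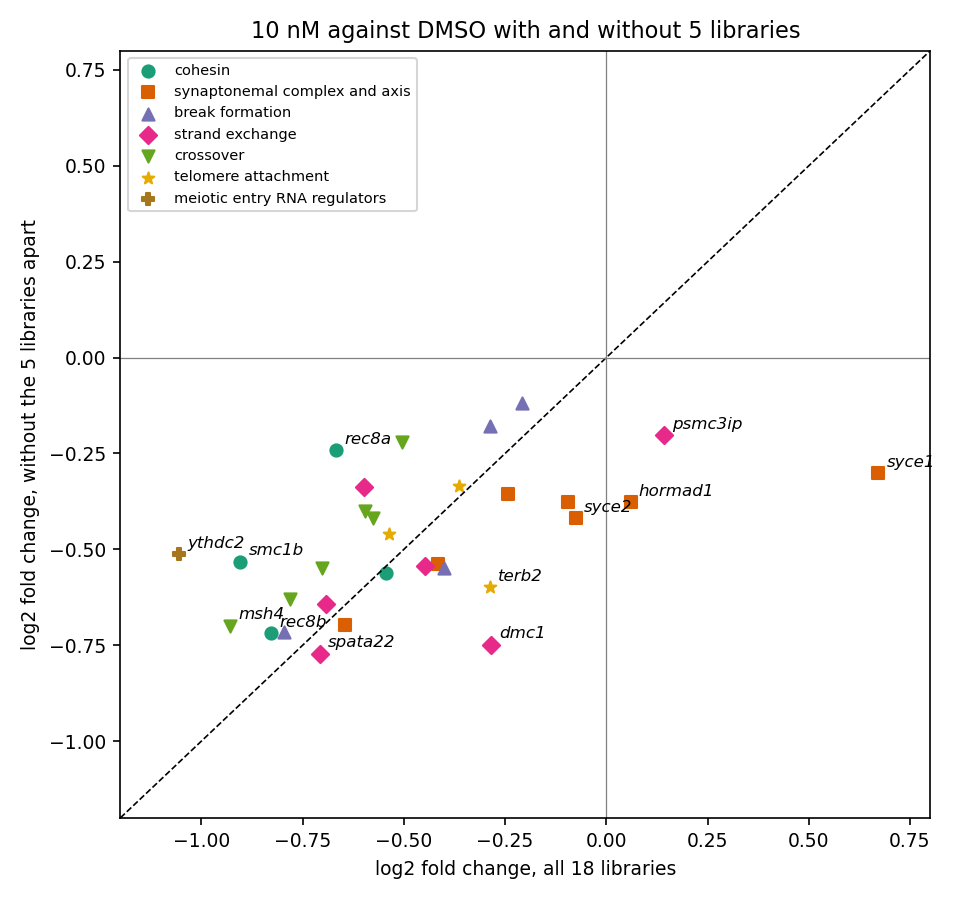
Log2 fold change at 10 nM against DMSO of the 31 meiosis genes with all 18 libraries (horizontal axis) and without the 5 libraries apart (vertical axis), marked by role, with a dashed line of equality. Without them all 31 values lie below 0, and syce1, hormad1 and psmc3ip cross from above 0 to below it.

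Other genes of the pathway were taken from a further list. It held 81 names, of which 64 matched 65 identifiers, all tested. The list was not limited to genes used only in meiosis, and the part of mitotic cells in its counts was not tested. At 10 nM 20 of the 65 were lower and 0 higher, beside 3.44% and 7.4% of all genes. Of the 65, 56 had a negative log2 change, beside 45.7% of all genes, and the median was -0.33. In 19 of the 65 all 10 nM libraries lay below DMSO, beside 3.2% of all genes. At an unadjusted p under 0.05, 33 were lower and 2 higher, beside 12.8% and 20.1% of all genes, and DESeq2 called 25 lower and 1 higher, beside 7.24% and 10.9% of the genes it tested. Without the libraries apart 8 were lower, beside 0.883% of all genes. The count was 12 without DMSO replicate 1, 7 without DMSO replicate 2, 12 without DMSO replicate 5, 11 without 10 nM replicate 1 and 6 without 10 nM replicate 5. In these fits without 1 library, 269, 226, 392, 261 and 236 of all genes were called lower in that order, in place of 828. With scaling on the spermatid list the count was 0, and on the spermatogonia list 9, beside 23 and 474 of all genes called lower.

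Among cohesin and cohesion genes 3 of 11 were lower. They were smc3, the shared cohesin ring subunit (log2 change -0.76), sgo1, a protector of centromeric cohesin (-0.62), and espl1, the separase that cuts cohesin (-0.95). The sgo1 gene was at 124 ± 16.8 CPM (SD) in DMSO and 80.7 ± 8.99 CPM (SD) at 10 nM (n = 6 each; edgeR adjusted p = 0.00364), and its ranges were separate.

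Among break repair and strand exchange genes 6 of 25 were lower. Among these, the log2 changes were -0.26 for fignl1, -0.64 for palb2, -0.28 for rbbp8 and -0.48 for rad54l. The product of palb2 links Brca1 and Brca2, that of rbbp8 starts the resection of break ends, and that of rad54l is a motor protein that moves along DNA. The rad54l level was 118 ± 7.83 CPM (SD) in DMSO and 84.4 ± 6.52 CPM (SD) at 10 nM (n = 6 each; edgeR adjusted p = 0.00482), again with separate ranges.

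Among crossover and resolution genes 7 of 17 were lower. The log2 changes were -1.11 for shoc1, which acts with the Msh4 and Msh5 group at crossovers, and -0.83 for the helicase gene mcm8. They were -0.47 for the helicase gene helq, -0.38 for the Fanconi gene fancd2, -0.67 for the nuclease scaffold gene slx4, and -0.59 and -0.44 for blm and top3a, whose products dissolve joined DNA molecules. The shoc1 level was 81.7 ± 9.74 CPM (SD) in DMSO and 37.9 ± 20.6 CPM (SD) at 10 nM (n = 6 each; edgeR adjusted p = 0.0396), and the mcm8 level 123 ± 11.1 and 69.2 ± 17.1 CPM (edgeR adjusted p = 0.00693).

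Of 10 genes for chromosome movement and meiotic progression 4 were lower. These were the meiotic transcription factor gene meiosin (log2 change -0.49), the RNA-binding protein gene rbm46 (-0.71), the kinase gene mastl (-0.49) and the germ cell gene tesmin (-0.96). The further list named for axis and synapsis matched 2 genes, ankrd31 and iho1, while sycp2l, six6os1, hormad2 and top6bl found no identifier. The products of both matched genes also act in break formation, and they were not counted in that group above. Of the 2, 0 were called by edgeR and 1, iho1, was lower at an unadjusted p under 0.05. In 1 of the 2 all 10 nM libraries lay below DMSO, beside 3.2% of all genes. The edgeR adjusted p of the 20 genes ran from 0.00364 (sgo1) to 0.0492 (fignl1).

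At 3 nM 1 of the 65 pathway genes was called, and it rose, beside 0.079% of all genes lower and 0.129% higher. This was h2ax, for the histone variant that is phosphorylated around breaks, named here after its values were seen. It had 8.31, 12 and 16.1 CPM (lowest, median, highest) in DMSO, 16.7, 25.2 and 52.2 at 3 nM and 14.4, 19.3 and 26.3 at 10 nM. All 3 nM libraries were above all DMSO libraries, as for 1.03% of all genes. Its log2 change at 3 nM was 1.27 (SE 0.26, edgeR adjusted p = 0.0456), and it was 0.90 (edgeR adjusted p = 0.161) without the libraries apart, so the call does not hold there. In 12 of the 18 fits that left out 1 library, no pathway gene was called at 3 nM. Between 10 and 3 nM edgeR called 0 of the 65, 23 were lower and 0 higher at an unadjusted p under 0.05 (3.33% and 8.44% of all genes), and DESeq2 called 6 lower.

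Lists named for other germ cell stages and for the mitotic cell cycle were examined at 10 nM. There 10.8% of all genes were called, 3.44% lower and 7.4% higher. Whether spermatocytes also express genes of these lists was not tested. For spermatogonia and early germ cells 1 of 13 tested genes rose (id4, log2 change 0.85) and 1 fell (tdrd7a, -0.80), with a median of 0.02. The summed level was 6820 to 8163 CPM in DMSO and 5407 to 8918 CPM at 10 nM, and nanos3 was at 0 in all 18 libraries. For spermatids and sperm 2 of 21 fell, the ciliary dynein genes dnah5 (-0.91) and dnai1 (-0.67, 1 of the 2 identifiers with that name), with a median of -0.32. Their list had sums of 2801 to 5516 CPM in DMSO and 3039 to 4971 CPM at 10 nM. Of the mitotic cell cycle list 3 of 23 fell, kif11 (-0.57), bub1 (-0.92) and bub1ba (-0.39), with a median of -0.27. Its sums were 6445 to 7882 CPM in DMSO and 5293 to 6511 CPM at 10 nM. Of its 23 genes 21 had a negative log2 change, beside 45.7% of all genes, and 4 had separate lower ranges, beside 3.2%. At an unadjusted edgeR p under 0.05, 11 were lower and 1 higher, beside 12.8% and 20.1% of all genes. Its median shift per library was -0.121 to 0.154 in DMSO and -0.398 to -0.128 at 10 nM, so the ranges nearly met. When the libraries apart were left out, 0 of the spermatogonia list, 0 of the spermatid list and 1 of the mitotic list, bub1, were called. Of all genes 1.9% were then called. The part of these cells in the change of the meiosis genes was not tested.

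Somatic and blood cell markers were counted in the same way. Of the leukocyte list 6 of 19 rose and 0 fell, led by the neutrophil genes lyz (log2 change 5.78) and mmp13a (6.15). Its sums were 328 to 595 CPM in DMSO, 292 to 434 at 3 nM and 329 to 1656 CPM at 10 nM, with 1607, 1656 and 711 CPM in replicates 1, 5 and 6. The intestinal-type epithelial list had 4 of 8 higher, led by cdh17 (3.55), with sums of 20.6 to 63.3 CPM in DMSO and 30.1 to 282 CPM at 10 nM. Sertoli cell genes had 1 of 11 higher (krt18a.1, 1.05) and 1 lower (inha, -1.06). Their sums were 2672 to 4549 CPM in DMSO and 3639 to 7014 CPM at 10 nM. The median log2 change of that list was 0.03. Its median shift per library was -0.24 to 0.20 in DMSO and -0.92 to 0.18 at 10 nM. In 10 nM replicate 6, which had the highest sum, the median shift was -0.58. Leydig cell genes had 2 of 11 lower, the steroid synthesis genes cyp17a1 (-1.39) and cyp11a1 (-0.87), with sums of 616 to 1978, 338 to 807 and 451 to 927 CPM in DMSO, 3 nM and 10 nM. The name cyp11a1 matched 2 identifiers, of which 1 was called and the other had an unadjusted p over 0.05. The red blood cell list had 0 of 8 called by edgeR, with 1 lower and 1 higher at an unadjusted p under 0.05, and sums of 105 to 306, 85.1 to 154 and 101 to 221 CPM in that order. Without the libraries apart 2 leukocyte genes were called higher, and 0 of the intestinal-type, Sertoli cell and red blood cell lists and 1 of the Leydig cell list, which fell, were called. The median of the intestinal-type list was then -0.0028, in place of 1.34, and cdh17 was at 0.05. The part of somatic and blood cells in the change of the meiosis genes was not tested. At 3 nM the sums were 6306 to 9511 CPM for spermatogonia, 3224 to 5685 for spermatids, 6113 to 7781 for the mitotic list, 3672 to 4964 for Sertoli cells and 33.3 to 109 for intestinal-type epithelium.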

How the data were processed

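RNA was measured in 18 testis libraries. Each deposited table holds raw whole-number counts by gene from the authors. FastQC, STAR, HTSeq and edgeR, with GRCz10 as the build, are named in the submitters' processing notes with no version. The library kit was stranded, per the labels' protocols. Neither the strand setting used in counting nor the release of the annotation is given in the sources used here. Values of a gene overlapping a neighbour are therefore uncertain. Among the meiosis genes with a RefSeq neighbour that overlaps (assembly GRCz12tu, used for names and neighbours only) are syce1, hormad1, trip13, mnd1, psmc3ip, meiob, spata22, hfm1, tex11, majin, terb1 and terb2. Paralogues such as rec8a and rec8b may share reads. Methylation tables of the series hold no gene names, and no annotation of GRCz10 was used, so they were not analysed here.

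Symbols were read from a table of names for 27000 of the 35117 identifiers and matched ignoring case and, where a name had no match, a paralogue letter. 0 rows name no gene. Totals were 16.2 to 29.8 M counts (M, 1000000; median 26.6 M). A count of 3 is worth 0.101 CPM at the largest total and 0.185 CPM at the smallest, a floor for counting error alone. No replicates were identical: between any pair, chi-square per degree of freedom was at least 17.3.

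The test was that of edgeR 4.0.16 under R 4.3.3: filterByExpr, TMM scaling, robust dispersions and a two-sided quasi-likelihood F-test with all 18 libraries in 1 model, which left 15 residual degrees of freedom. Adjusted p-values are Benjamini-Hochberg values over all 24053 genes, called under 0.05. SE is the log2 change divided by the square root of F. Log2 CPM uses a prior count of 2. No test over a list of genes was made. The test was checked on simulated counts with known changes, independent libraries and the same dispersion for every gene. Those counts held no shift of whole libraries as in the libraries apart, so the check cannot show how the test behaves under such shifts.

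The meiosis genes and the other lists were chosen with earlier results of these data known. Every meiosis gene is named. From the other pathway list the genes called at 10 nM against DMSO are named, and from each cell type list up to 3 by smallest p. Alternatives were 4 other scalings, no filter beyond 1 count, DESeq2 1.42.0, the replicate number as a block, a fit of 2 groups, leaving out each library, and, chosen after seeing the data, leaving out the 5 libraries apart. Some genes of the pathway list are counted but not reported by name here.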

Additional observations from a re-analysis of the deposited data

Results flagged for a closer look

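Of 126 groups of 6 libraries examined, for the meiosis genes, their median shift, the summed cell type and AHR target lists and the mitochondrial share, 12 held a library whose gap to its nearest neighbour was over 0.625 of the group's range. Chance flags about 1 in 20 groups, or 6.3 of 126.

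In DMSO, replicate 1 was the highest for sycp2 (504 CPM, others 332 to 372), mei4 (102 CPM, others 87.1 to 91.1), msh4 (199 CPM, others 132 to 151) and hfm1 (278 CPM, others 192 to 212). It was also the highest for the sums of the intestinal-type list (63.3 CPM, others 20.6 to 33.5) and of the red blood cell list (306 CPM, others 105 to 140). DMSO replicate 6 was the lowest for psmc3ip (39.2 CPM, others 45.4 to 49.4), and DMSO replicate 3 was the highest for the leukocyte sum (595 CPM, others 328 to 426).

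Among exposed libraries, 3 nM replicate 6 was the lowest for exo1 (49.8 CPM, others 68.1 to 80.8) and the highest for the Sertoli cell sum (4964 CPM, others 3672 to 4001). At 10 nM, replicate 1 was the highest for terb2 (44.6 CPM, others 18.6 to 24.9) and replicate 6 for the Sertoli cell sum (7014 CPM, others 3639 to 4675). The median shift of the Sertoli cell list was negative in both, at -0.68 in 3 nM replicate 6 and -0.58 in 10 nM replicate 6. Both 3 nM replicate 6 and 10 nM replicates 1 and 6 are among the 5 libraries apart.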

How the results depend on the processing

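At 10 nM against DMSO the median log2 change of the meiosis genes stayed negative in every alternative run. With scaling on the spermatogonia list, which put the all-gene median at 0.17 in place of 0.06, 6 meiosis genes and 9 other pathway genes were called, and with scaling on the spermatid list, which put it at 0.22, 1 and 0 were called and the median of the meiosis genes was -0.36. Under spermatid scaling 97.9% of all called genes were higher, in place of 68.3%, and without the 5 libraries apart 53.6% were. Of all genes, 474 were called lower under spermatogonia scaling and 23 under spermatid scaling, in place of 828. Without those libraries 6 and 8 were called, and under the replicate block 7 and 7. Of all genes, 1.9% and 2.84% were then called (217 and 183 lower), in place of 10.8%. RLE scaling gave 16 and 22, upper-quartile scaling 14 and 17, no filter 12 and 17, DESeq2 20 and 26, and a fit of 2 groups 11 and 17. In that order 11%, 9.95%, 6.06%, 18.2% and 7.29% of all genes were called, with 995, 567, 578, 1825 and 502 lower.

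At 3 nM the count of other pathway genes called went from 1 to 0 under both list scalings, the replicate block, the fit of 2 groups and without the 5 libraries apart. Between 10 and 3 nM, upper-quartile scaling called 1 meiosis gene, beside 0.337% of all genes. DESeq2 called 3 and 6 other pathway genes there, beside 3.13% of the genes it tested. The median of the meiosis genes was -0.16 under spermatogonia scaling.

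Signs turned at 10 nM for sycp1 (0.083 and 0.11) and syce2 (0.11 and 0.11) under spermatogonia and spermatid scaling, and for syce1 (-0.30), hormad1 (-0.38) and psmc3ip (-0.20) without the 5 libraries apart. At 3 nM, among the 14 genes called at 10 nM, they turned for smc1b (0.043) without those libraries and for majin (0.052) under spermatid scaling. Among the uncalled genes they turned at 3 nM for rec8a (0.0069), hormad1 (-0.014) and mei4 (-0.055) without those libraries, for sycp1 (-0.047), trip13 (-0.032) and terb2 (-0.048) under spermatogonia scaling, for syce2 (0.074), spo11 (0.069) and prdm9 (0.041) under spermatid scaling and for spo11 (0.0083) under upper-quartile scaling. The cause was not tested.

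Leaving out each of 18 libraries in turn gave 7 to 16 meiosis genes and 6 to 25 other pathway genes called at 10 nM. Of all genes 3.41% to 15.9% were called in these fits, and the median of the meiosis genes was -0.59 to -0.48. At 3 nM leaving out 1 library gave 0 to 0 and 0 to 1, and a median of -0.23 to -0.11. Between 10 and 3 nM it gave 0 to 2 and 0 to 2, and a median of -0.37 to -0.28. Signs turned for syce2 (-0.26 to 0.0065) and hormad1 (-0.11 to 0.15) at 10 nM and for majin (-0.084 to 0.019) at 3 nM, where the uncalled genes sycp1, syce2, spo11, prdm9, dmc1 and terb2 also turned in 1 or more fits. Fewer libraries also mean fewer residual degrees of freedom.

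The replicate numbers did not pair the libraries. The deviations of same-numbered libraries correlated at -0.49 to 0.34, over 0.1 in 6 of 18 pairs, and 4 of 18 libraries correlated best with their own number, so the replicate block rests on numbers only. Low-count genes such as rec8a and rec114 are limited by depth.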
